A study of Gallus gallus with 4 samples.

Results

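The sites described here are those at which a peak of SMC2 and a peak of CAP-H, both subunits of condensin, lay over each other in mitotic chicken cells. Every SMC2 peak and every CAP-H peak on the same sequence whose intervals shared at least 1 bp formed a pair. This gave 2139 pairs, made of 2009 of the 6474 SMC2 peaks, or 31.0%, and 1852 of the 4369 CAP-H peaks, or 42.4%. The pairs were chosen by the called peak intervals, so the overlap itself is the rule and not a result. What follows describes how the peaks of a pair lay to each other: how many partners each had, how far apart their centres lay, how their widths compared and which peak enclosed the other.

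Condensin is a ring-shaped complex that folds chromatin into compact mitotic chromosomes. SMC2 is one of its long coiled-coil ATPases and is part of condensin I and condensin II alike. CAP-H is a kleisin, the subunit that closes the ring by joining the heads of the ATPases, and it belongs to condensin I, while condensin II carries another kleisin. An SMC2 pull-down can therefore recover DNA held by either complex, and a CAP-H pull-down DNA held by condensin I.

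The series has 4 libraries from DT40, a chicken B cell lymphoma line: 1 pull-down and 1 input for SBP-tagged SMC2, and the same for SBP-tagged CAP-H, where SBP is a streptavidin-binding tag. In both lines a tagged transgene rescued the knockout cells, and 2 ng/ml doxycycline shut off the untagged protein, so that the tagged subunit was the form left. All cells were blocked in mitosis with 500 ng/ml nocodazole, and lysates of cells crosslinked in 1% formaldehyde were sonicated and bound to streptavidin beads. Each subunit was thus mapped in a line of its own and in 1 library, with no replicate. No difference between the lists has a replicate check, no test was made, and the intervals given in brackets, all at 95%, cover counting error over pairs only. They are exact binomial intervals for shares and order-statistic intervals for medians. In values over all pairs a peak with several partners counts once for each. The intervals take these repeats as separate and can be too narrow. The read depth behind the peaks is unknown.

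Most sites held a single peak of each subunit. Peaks joined by a chain of overlaps were counted as 1 site, which gave 1722 sites. Of these, 1420 were one-to-one, or 82.5% (80.6 to 84.2), and these sites held 66.4% (64.3 to 68.4) of the 2139 pairs. In 186 sites, or 10.8% (9.37 to 12.4), several SMC2 peaks lay on a single CAP-H peak. The mirror form, several CAP-H peaks on a single SMC2 peak, was seen at 68 sites, or 3.95% (3.08 to 4.98). The other 48 sites, or 2.79% (2.06 to 3.68), were chains with more than 1 peak of each subunit, and 27 of them had 2 of each. A CAP-H peak was therefore more often met by several SMC2 peaks than the reverse: 13.1% (11.6 to 14.7) of paired CAP-H peaks and 5.97% (4.98 to 7.10) of paired SMC2 peaks had more than 1 partner. The whole SMC2 list is also the longer one, and the part of its length in this difference was not tested.

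Sites with several peaks were longer than one-to-one sites, in part by construction. The span of a site takes in all its linked peaks and the gaps between them. The median span from the first to the last base was 2164.5 bp for one-to-one sites, 3716 bp where CAP-H was split, 4363.5 bp where SMC2 was split and 6132 bp for chains. The 8 placed sites with most peaks show the arrangements that occurred. On chromosome 28, 4 SMC2 peaks and 3 CAP-H peaks were linked over 12.6 kb, from 4729976 to 4742614, the only site with 7 peaks. Its middle CAP-H peak, 7466 bp wide, reached 4 SMC2 peaks, of which 2 lay wholly inside it.

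The longest site, of 42.3 kb, lay on chromosome 5 from 3065817 to 3108130. One SMC2 peak of 40356 bp there overlapped 4 CAP-H peaks of 826, 1542, 30276 and 1253 bp. The last of these CAP-H peaks also touched a second SMC2 peak of 1632 bp. On chromosome Z, from 42622153 to 42654744, an SMC2 peak of 31252 bp met 5 CAP-H peaks. In order along the chromosome they measured 8997, 13310, 1959, 764 and 1855 bp. The longest, of 13310 bp, was centred 1247 bp below the centre of the unbroken SMC2 peak. On chromosome 3, from 104122824 to 104137741, 2 SMC2 peaks of 5400 and 8648 bp met 4 CAP-H peaks, and a CAP-H peak of 691 bp bridged the gap between the SMC2 peaks.

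The opposite form, with SMC2 in pieces under a long CAP-H peak, was found on chromosomes 9, 11 and 14. On chromosome 9 a CAP-H peak of 8605 bp, from 14804591 to 14813195, held 3 SMC2 peaks whole and the end of 1 more. On chromosome 14 a CAP-H peak of 12793 bp, from 6663346 to 6676138, met 4 SMC2 peaks of 1059, 1218, 1936 and 1500 bp. The remaining sites of 6 peaks, on chromosome 11 from 17928501 to 17937420 and chromosome 15 from 9434328 to 9439592, held 3 peaks of each subunit, with 1 nested pair at each site and the other pairs overlapping in part.

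**Figure D1:**
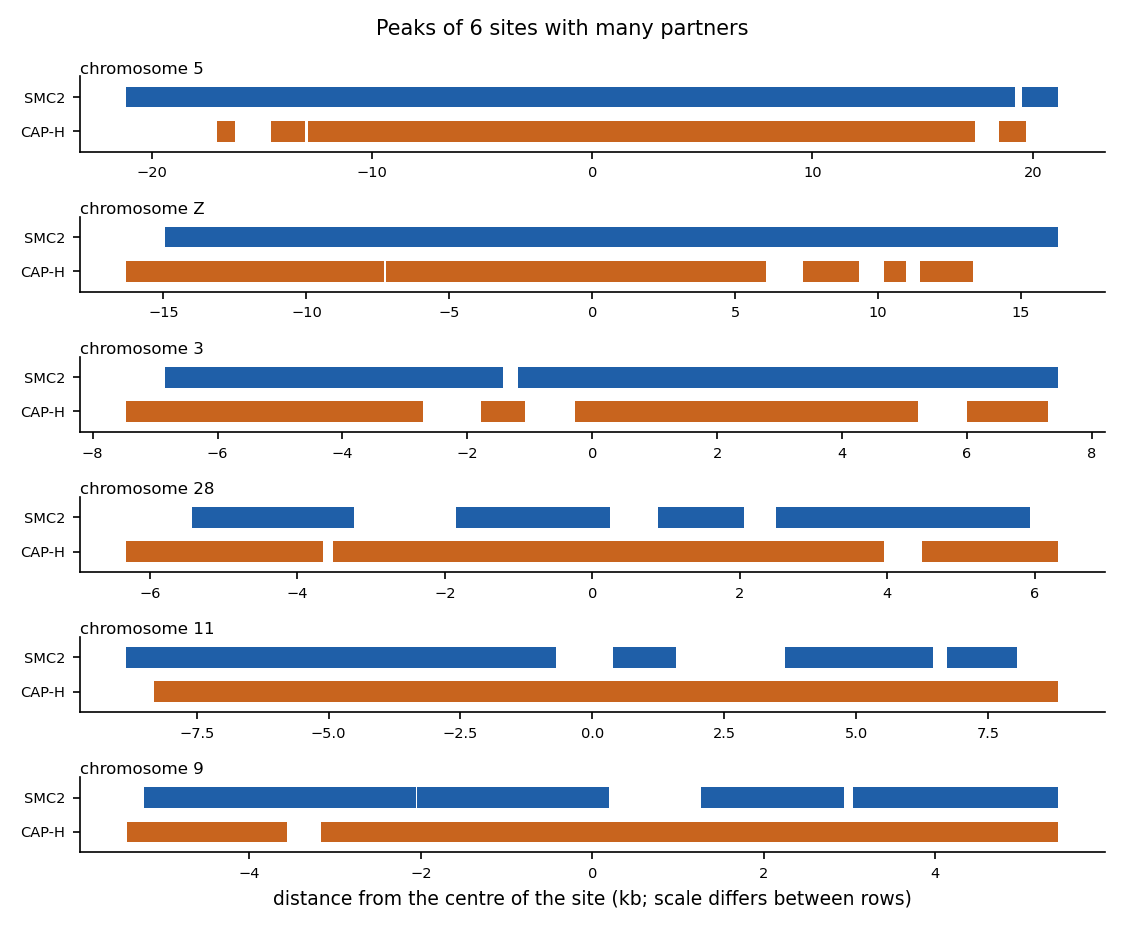
Each row is 1 site, with SMC2 peaks above and CAP-H peaks below, plotted by distance in kb from the centre of the site; the scale differs between rows. On chromosomes 5 and Z 1 long SMC2 peak of 40356 or 31252 bp covers several CAP-H peaks, and on chromosomes 9 and 11 a long CAP-H peak of 8605 or 17135 bp covers several SMC2 peaks.

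Splitting was more frequent on the microchromosomes, the small and gene-dense chromosomes of birds, than on the macrochromosomes. One-to-one sites made up 87.1% (83.0 to 90.4) of 340 sites on chromosomes 1 to 5 and 78.8% (76.0 to 81.3) of 942 sites on chromosomes 11 to 28, intervals that do not meet. On chromosomes 6 to 10 the share was 81.8% (75.5 to 87.1) of 187 sites, and on sequence not placed on a chromosome 90.7% (86.2 to 94.1) of 236. Sites also stood closer together on the microchromosomes. The median distance from one site to the next was 29.4 kb (26.1 to 36.4) there, 174 kb (117 to 275) on chromosomes 6 to 10 and 416 kb (331 to 640.1) on chromosomes 1 to 5. The part of this spacing in the splitting was not tested. Windows of 100 kb held at most 10 sites, on chromosome 1 from 47900001 to 48000000 and on chromosome 24 from 5600001 to 5700000. These windows were not covered by the naming rule and are given because they were highest.

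**Figure D2:**
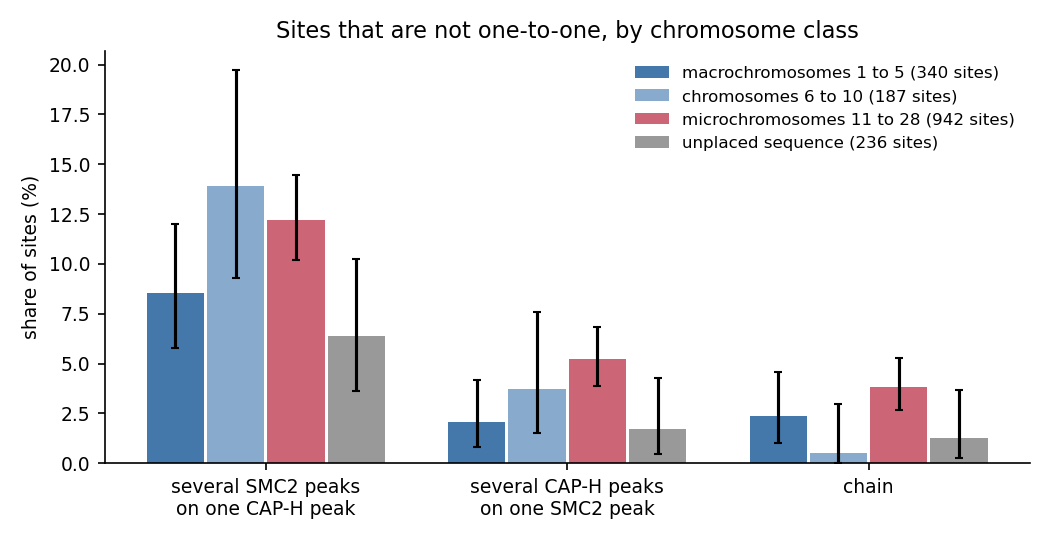
Bars give the percent of sites of each form that is not one-to-one, by chromosome class, and lines the 95% exact binomial interval. Several SMC2 peaks on one CAP-H peak is the most frequent of these forms in all 4 classes shown. Its share of sites is 13.9% on chromosomes 6 to 10, 12.2% on microchromosomes, 8.53% on macrochromosomes and 6.36% on unplaced sequence, with intervals that overlap.

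Where SMC2 was split, its pieces lay along the CAP-H peak by the rule, as each had to overlap it. The pieces also lie side by side, so the rule has a part in the offsets of piece and block. The 186 split sites held 406 SMC2 peaks: 156 sites had 2, 26 had 3 and 4 had 4. Each piece alone was offset from the CAP-H centre by a median of 1128 bp (1022 to 1231). Taken as a block from the first to the last base, the pieces were centred 334 bp (289 to 453) from the CAP-H centre. The block was about as wide as the CAP-H peak, with a median log2 width ratio of 0.04 (-0.03 to 0.09). The widest gap between neighbouring pieces had a median of 343 bp (302 to 403), and at 60.8% (53.3 to 67.8) of the sites no gap was over 500 bp. The SMC2 pieces covered a median of 76.7% (73.9 to 81.0) of the CAP-H peak, and 54.7% (49.7 to 59.6) of them lay wholly inside it. The covered share had an interquartile range of 61.6 to 88.2% and was 21.0% at the lowest.

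The pieces of a split SMC2 site differed in strength. The authors' score, which the SMC2 list alone gives and which the rule did not use, ran from 50.02 to 3100. Within a site the highest score was a median of 1.73 times (1.52 to 1.88) the lowest, and at least 2 times the lowest in 75 of 186 sites. At the 156 sites with 2 pieces, the stronger piece was the nearer to the CAP-H centre in 104, or 66.7% (58.7 to 74.0). It shared more bases with the CAP-H peak in 116, or 74.4% (66.8 to 81.0), and was the wider of the 2 in 131, or 84.0% (77.3 to 89.4). Its width moves with its score, and the part of width in these counts was not tested. An example is chromosome 11, where a CAP-H peak 17.1 kb wide, from 17109661 to 17126795, held 4 SMC2 peaks with scores of 1249.5, 108.27, 175.26 and 116.29. The strongest, from 17109131 to 17117283, took up 7623 bp of it.

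Sites with CAP-H in pieces were fewer and differed in their make-up. All but 1 of the 68 had 2 CAP-H pieces, and the exception was the site on Z with 5. The widest gap between pieces had a median of 189 bp (104 to 317). The block of pieces was centred 325 bp (219 to 458) from the SMC2 centre and was wider than the SMC2 peak, with a median log2 ratio of CAP-H block to SMC2 peak of 0.32 (0.03 to 0.56). In 33 of the 68 sites, or 48.5% (36.2 to 61.0), the CAP-H pieces reached past the SMC2 peak on both sides, and SMC2 pieces did the same to a CAP-H peak at 26.3% (20.2 to 33.3) of their sites. SMC2 peaks with several CAP-H partners were stronger. The median score was 193 (159 to 236) for these 120 peaks, chains included, and 106 (102 to 110) for the 1889 with a single partner, a ratio of 1.83. They were also wider, with medians of 2423 and 1417 bp. A wider peak can meet more partners by the rule, and the part of width in the scores was not tested. The ratio of median scores was 3.17 when peaks closer than 500 bp were first merged within each list. A merged peak took the highest score of its pieces and their joint width, so the merging itself has a part in that value. Among SMC2 peaks with a single CAP-H partner, the 469 that shared it with another SMC2 peak had a median score of 106 (99.7 to 121). Those in one-to-one pairs had 105 (100.8 to 110.6). SMC2 peaks that shared a CAP-H peak but also had several partners are not among the 469.

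Over all pairs neither list was shifted along the chromosome beyond counting error. As the peaks of a pair overlap, their centres lie less than the mean of their widths apart by the rule. Over all 2139 pairs the median distance between centres was 451 bp (420 to 483; interquartile range 164 to 970). Over the 1420 one-to-one pairs it was 282 bp (260 to 310). Measured with its sign, as CAP-H centre minus SMC2 centre, the median was -8.5 bp (-30.5 to 4.5), and the CAP-H centre was at the higher coordinate in 1048 pairs and at the lower in 1090. In 1 pair the centres were equal. With SMC2 scores of at least 100, however, the 1199 pairs had a median of -34 bp (-61 to -5), an interval that leaves out 0. Where each peak had to be covered by at least 50%, the median distance was 223 bp over 1134 pairs, all of them one-to-one by the construction of that rule.

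Among one-to-one pairs 14.9% (13.1 to 16.9) had their centres within 50 bp, which is 1 read length. Within 200 bp there were 40.0% (37.4 to 42.6), within 500 bp 70.1% (67.6 to 72.4) and within 1000 bp 91.2% (89.6 to 92.6). Only 15 of the 1420 were more than 2000 bp apart and none more than 5000 bp, whereas of all pairs 164 passed 2000 bp and 15 passed 5000 bp. Set against the mean width of the peaks of a pair, the median offset was 16.0% (14.9 to 17.6) in one-to-one pairs and 23.4% (22.2 to 25.3) in all. Overlap bounds this measure at 100%.

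**Figure D3:**
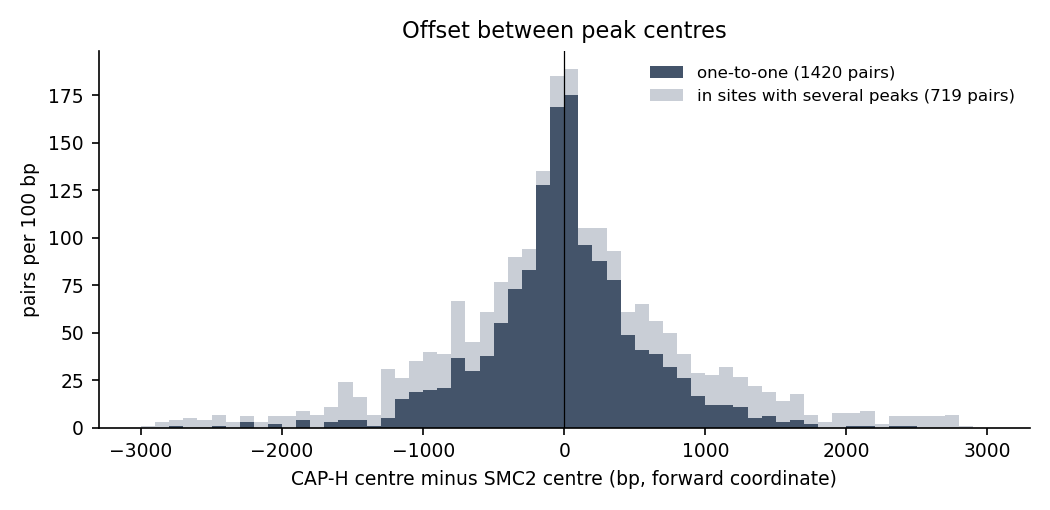
Bars count pairs per 100 bp of signed offset, CAP-H centre minus SMC2 centre, with one-to-one pairs dark and pairs from sites with several peaks light. The counts are highest beside 0 and similar on both sides, with a median of -8.5 bp; 71 pairs beyond 3000 bp on either side are not drawn.

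The widest and the closest pairs mark the limits of the offsets. The largest came from the long SMC2 peaks of chromosomes 5 and Z. On chromosome 5 the CAP-H peak from 3105428 to 3106680 was centred 20060 bp above the centre of the SMC2 peak, and the 2 short CAP-H peaks at its other side 15674 and 12842 bp below it. On Z the CAP-H peaks from 42622153 and from 42649903 lay 12468 bp below and 11712 bp above the SMC2 centre. In each of these pairs the SMC2 peak was the wider, by 3.47-fold for the CAP-H peak of 8997 bp from 42622153 and by 16.8-fold or more for the others. Among one-to-one pairs in the upper 10% of placed pairs by score the closest centres were 1 bp apart, on chromosome 14, where SMC2 ran from 33437 to 34735 and CAP-H from 33439 to 34735. On chromosome 6 the peaks from 34900182 to 34901289 and from 34900184 to 34901284 were centred 1.5 bp apart. On Z an SMC2 peak of 8425 bp, from 27165565 to 27173989, and a CAP-H peak of 8389 bp were centred 2 bp apart. The other pairs of this kind were on chromosome 20 from 14233921 to 14238636, with centres 3 bp apart, and on chromosome 15 from 10126 to 11206, with 4.5 bp.

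The starts of paired peaks coincided less often on placed chromosomes than on unplaced sequence, while for the ends the intervals overlapped. On placed chromosomes the starts of a pair lay within 10 bp of each other in 58 of 1873 pairs, or 3.10% (2.36 to 3.98), and the ends in 51, or 2.72% (2.03 to 3.56). On unplaced sequence the starts did so in 47 of 266 pairs, or 17.7% (13.3 to 22.8), and the ends in 12, or 4.51% (2.35 to 7.75). Of those 47, 44 began within the first 100 bases of their sequence, against 3 of the 58 on placed chromosomes. The part of the sequence ends in the match of the starts was not tested. Centres within 50 bp were also more frequent on unplaced sequence, at 22.9% (18.0 to 28.5) against 8.86% (7.61 to 10.2) on placed chromosomes.

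CAP-H peaks were the wider member in most pairs. The median log2 ratio of SMC2 to CAP-H width was -0.29 (-0.34 to -0.25), and CAP-H was wider in 63.5% (61.5 to 65.6) of the 2139 pairs. CAP-H was at least 2-fold wider in 543 pairs, or 25.4%, and SMC2 at least 2-fold wider in 183, or 8.56%. CAP-H peaks were also the wider in the whole lists: the median SMC2 width was 1126 bp over 6474 peaks and the median CAP-H width 1380 bp over 4369. The log2 ratio of these list medians was -0.29, and that of the medians of the paired peaks, each counted once, was -0.35. Both subunits had wider peaks in pairs, the median SMC2 width being 1458 bp (1409 to 1519) and the median CAP-H width 1858 bp (1799 to 1913). A wider peak is more likely to overlap another, so the rule itself favours wide peaks.

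The ratio depended on the form of the site. In one-to-one pairs it was -0.16 (-0.20 to -0.10), where the median SMC2 peak measured 1417.5 bp and the median CAP-H peak 1769 bp. Where SMC2 was split it was -1.38 (-1.46 to -1.28), and where CAP-H was split 0.80 (0.57 to 1.05), each value setting a piece against a whole peak. Widths rose together across the one-to-one pairs, with a Spearman rho of 0.44 over 1420 pairs, each pair sharing its place in the genome.

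**Figure D4:**
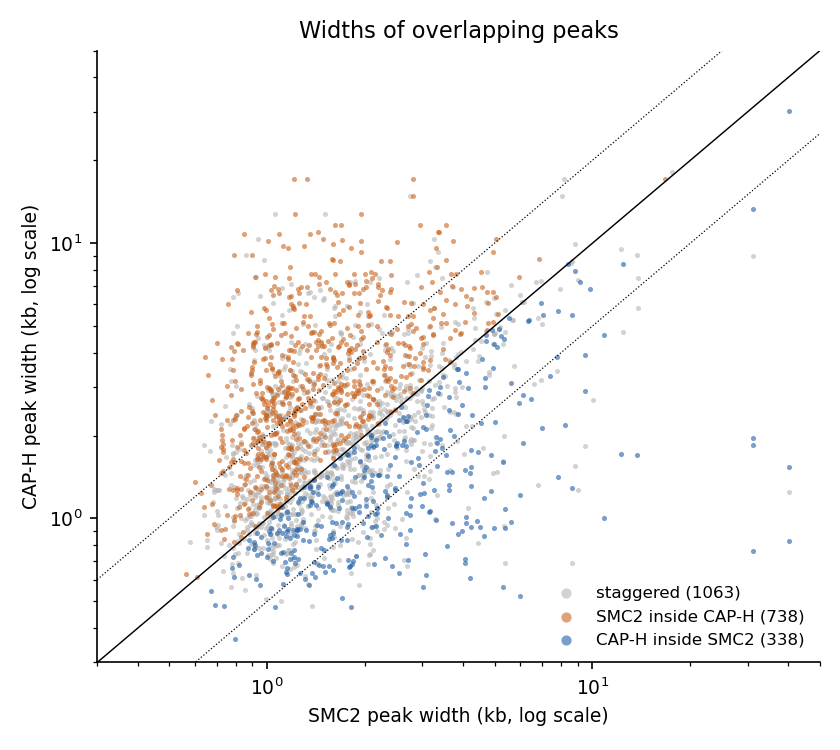
Each point is a pair, with SMC2 width across and CAP-H width up, both in kb on log axes; the solid line marks equal widths and the dotted lines 2-fold differences. Pairs with CAP-H at least 2-fold wider, 25.4%, outnumber those with SMC2 at least 2-fold wider, 8.56%, and the points furthest right belong to the SMC2 peaks of 31252 and 40356 bp.

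The most unequal pairs were pieces under long peaks. The largest excess of SMC2 was 48.9-fold, on chromosome 5, for the 40356-bp peak against the CAP-H peak of 826 bp from 3069908 to 3070733. On Z the SMC2 peak was 40.9 times as wide as the CAP-H peak of 764 bp from 42648668 to 42649431. The largest excess of CAP-H was 14.2-fold, on chromosome 11, where an SMC2 peak of 1205 bp from 17118349 to 17119553 lay in the CAP-H peak of 17135 bp. A second SMC2 peak in the same CAP-H peak, from 17124690 to 17126011, gave 13.0-fold. Next came the 12793-bp CAP-H peak of chromosome 14 with 12.1-fold. On chromosome 21 a CAP-H peak of 9024 bp from 4230873 to 4239896 was 11.5 times as wide as an SMC2 peak from 4235032 to 4235819. On chromosome 4 a CAP-H peak of 10369 bp from 1802057 to 1812425 was 11.1 times as wide as the SMC2 peak at its edge. Each of these CAP-H peaks met 3 or 4 SMC2 peaks.

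In 50.3% (48.2 to 52.4) of pairs 1 peak lay wholly inside the other. SMC2 lay inside CAP-H in 738 pairs, or 34.5% (32.5 to 36.6), and CAP-H inside SMC2 in 338, or 15.8% (14.3 to 17.4). The other 1063 pairs were staggered, each peak reaching past the other on 1 side, and no pair had identical intervals. The stagger had no preferred direction: the CAP-H peak was shifted to lower coordinates in 536 pairs and to higher ones in 527. Among one-to-one pairs SMC2 lay inside CAP-H in 33.8% (31.3 to 36.3) and CAP-H inside SMC2 in 18.6% (16.6 to 20.7), and stagger was 338 in each direction.

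The offset is tied to nesting by definition, as both come from the same starts and ends and a nested peak cannot be offset beyond the edges of the peak around it. In one-to-one pairs with CAP-H inside SMC2 the median offset was 121 bp (94.5 to 153), and with SMC2 inside CAP-H 196 bp (164 to 227). In staggered one-to-one pairs it was 401 bp (356 to 460) with CAP-H at lower and 437 bp (372 to 493) with CAP-H at higher coordinates. The SMC2 score was highest where SMC2 was the enclosing peak, with medians over all pairs of 151 there, 102 with SMC2 inside CAP-H and 109 in staggered pairs. An enclosing peak is the wider one by definition. The median SMC2 widths were 2180.5, 1279 and 1509 bp in the same order, and the part of width in these scores was not tested. In total 3.09 Mb lay in both lists. This was 79.7% of the length of the paired SMC2 peaks and 69.4% of that of the paired CAP-H peaks, or 33.1% and 38.3% of all SMC2 and all CAP-H peaks. In the median pair the overlap took in 89.1% of the SMC2 peak and 63.8% of the CAP-H peak.

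The weakest overlaps and the nearest misses lie on either side of the rule. The smallest overlap on placed chromosomes, 2 bp, was on chromosome 12 between SMC2 from 19565437 to 19566249 and CAP-H from 19558847 to 19565438. Overlaps of 5, 6, 7 and 9 bp followed, on chromosomes 20, 4, 4 and 20. The nearest peaks that did not overlap were 3 bp apart on chromosome 28, between SMC2 ending at 3117237 and CAP-H starting at 3117241. Gaps of 6 bp were found on chromosomes 14 and 27 and of 9 bp on chromosomes 4 and 18. Most of these peaks had another partner. Of the 4465 SMC2 peaks with no partner, 142 had a CAP-H peak within 500 bp, or 3.18% (2.69 to 3.74), and of the 2517 CAP-H peaks with no partner 132 had an SMC2 peak that near, or 5.24% (4.41 to 6.19).

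Pairs with a stronger SMC2 peak had a median width ratio nearer to 0. They were offset by less of their width, though not by fewer bases. In 5 equal groups by score the median width ratio rose from -0.64 (-0.78 to -0.54) in the weakest group of 428 pairs to -0.47, -0.34 and -0.21, and to 0.04 in the strongest group, where the interval, up to 0.10, just took in 0. CAP-H was at least 2-fold wider in 36.7% of the weakest pairs and 7.24% of the strongest. SMC2 was at least 2-fold wider in 4.21% of the weakest and 20.1% of the strongest. SMC2 lay inside CAP-H in 41.1% (36.4 to 46.0) of the weakest pairs and 25.7% (21.6 to 30.1) of the strongest. The share with CAP-H inside SMC2 went the other way, from 9.81% (7.16 to 13.0) to 27.6% (23.4 to 32.1). One-to-one pairs made up 71.5% (67.0 to 75.7) of the weakest group and 56.8% (51.9 to 61.5) of the strongest. The groups count pairs, so an SMC2 peak with several partners enters once for each. The intervals take these repeats as separate, and the part of the repeats in the shares was not tested. Over all pairs the median offset was 407 bp (353 to 484) in the weakest group and 528 bp (437 to 676) in the strongest, while the offset relative to the mean width was 29.1% (25.8 to 33.4) and 17.0% (14.4 to 20.1).

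In one-to-one pairs alone the bases in both peaks, as a percent of the bases in either, rose from a median of 49.3% (44.7 to 53.2) in the weakest of 5 groups of 284 pairs to 77.0% (73.0 to 80.1) in the strongest. The offset relative to the mean width fell from 21.7% (17.8 to 25.9) to 8.80% (7.19 to 11.02). The offset in bp moved little, at 273 bp (222 to 342) and 262 bp (200 to 333) in these groups, while both peaks were wider where the score was higher. Median SMC2 width went from 969.5 to 2645.5 bp and median CAP-H width from 1462.5 to 2541.5 bp. Over one-to-one pairs the score had a Spearman rho of 0.65 with SMC2 width and 0.29 with CAP-H width. Score and width come from the same peak call, and their separate parts were not tested.

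**Figure D5:**
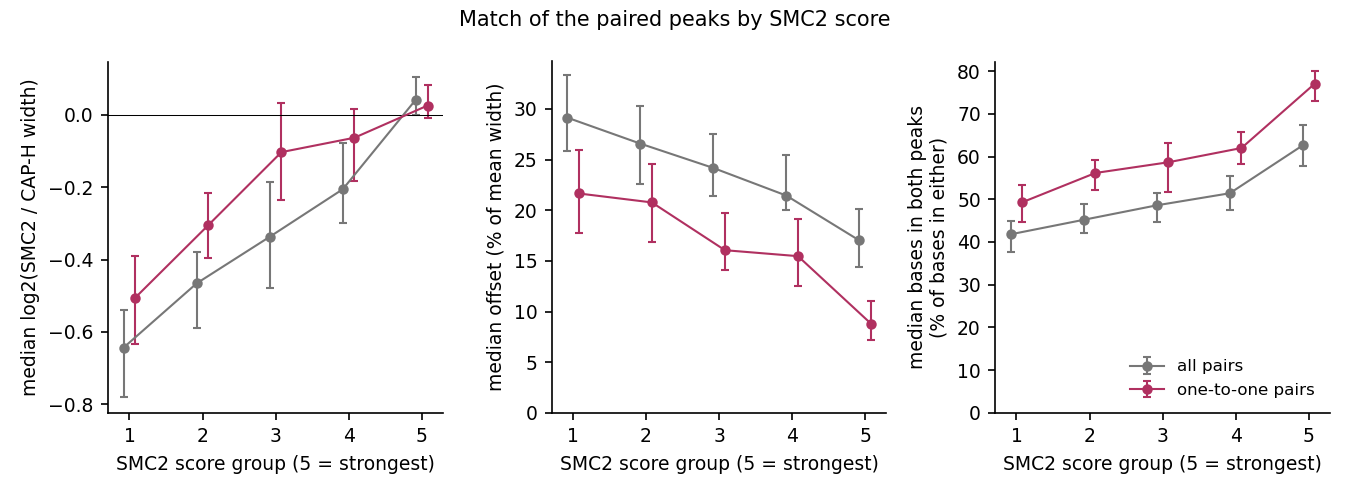
Points are medians in 5 equal groups of pairs by SMC2 score, for all pairs and for one-to-one pairs, with 95% order-statistic intervals: the log2 width ratio, the offset as percent of the mean width of a pair, and the bases in both peaks as percent of those in either. From the weakest to the strongest group of one-to-one pairs the offset falls from 21.7% to 8.80% and the shared bases rise from 49.3% to 77.0%.

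The one-to-one pairs with the highest score, 3100, were alike in width. On placed chromosomes 12 SMC2 peaks tied at this score, in 16 pairs, and 10 of the 12 were one-to-one. Among all paired SMC2 peaks, those on unplaced sequence included, 1420 of 2009 were in one-to-one pairs. Counted by pairs, 10 of the 16 were one-to-one, next to 64.4% of the 1873 placed pairs. In the 10 one-to-one pairs at score 3100 the centres were 2 to 579.5 bp apart. The wider peak was 1.00 to 1.39 times the narrower, and at least 95.6% of the narrower peak was covered. CAP-H lay inside SMC2 in 4 of them, on chromosomes 11, 12, 17 and Z, and SMC2 inside CAP-H in 3, on chromosomes 9, 22 and 24. On chromosome 9 SMC2 ran from 23435765 to 23440701 and CAP-H from 23435635 to 23440800, with centres 15.5 bp apart. On chromosome 24 SMC2 ran from 7 to 2820 and CAP-H from 1 to 2857, also 15.5 bp apart. The staggered 3 were on chromosomes 4, 8 and 14. The exceptions were the chromosome 5 site above and chromosome 18, where an SMC2 peak of 6097 bp from 11199962 to 11206058 enclosed 2 CAP-H peaks, from 11200843 to 11202729 and from 11203233 to 11206049. In the pairs of these SMC2 peaks SMC2 was 1.33 to 48.9 times as wide as CAP-H.

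Both the offsets and the width ratio differed between some chromosome classes. One-to-one pairs had a median offset of 256 bp (220.0 to 288) on chromosomes 1 to 5, 290.5 bp (235.5 to 381.5) on chromosomes 6 to 10, 342 bp (311 to 370) on microchromosomes and 146 bp (115 to 199) on unplaced sequence. Relative to the mean width it was 14.3% (12.4 to 16.7), 19.1% (15.6 to 22.7), 18.0% (16.2 to 20.5) and 10.3% (8.26 to 14.5) in the same order. By that measure the interval of chromosomes 1 to 5 met that of each other class. The interval of unplaced sequence lay below those of chromosomes 6 to 10 and microchromosomes. The width ratio over all pairs was -0.33 (-0.45 to -0.25) on chromosomes 1 to 5 and -0.32 (-0.38 to -0.26) on microchromosomes, a difference of 0.02 on the log2 scale with bounds of -0.12 and 0.19 from the intervals of both medians. On chromosomes 6 to 10 the ratio over all pairs was -0.72 (-0.88 to -0.47). SMC2 lay inside CAP-H in 47.4% (40.8 to 54.1) of the 230 pairs there. That share was 38.8% (34.0 to 43.8) on chromosomes 1 to 5 and 32.9% (30.3 to 35.6) on microchromosomes. In one-to-one pairs alone the ratio on chromosomes 6 to 10 was -0.40 (-0.59 to -0.21). It was -0.24 (-0.31 to -0.11) on chromosomes 1 to 5 and -0.20 (-0.27 to -0.12) on microchromosomes, and these intervals meet. On unplaced sequence the ratio over all pairs was 0.07 (0.00 to 0.13), and CAP-H lay inside SMC2 in 34.2% (28.5 to 40.2) of 266 pairs, against 13.2% (11.7 to 14.8) on placed chromosomes. Z had 21 pairs with a ratio of 0.10 (-0.45 to 1.27). W had 1 pair, in which a CAP-H peak of 516 bp from 835704 to 836219 lay inside an SMC2 peak of 1692 bp.

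Single chromosomes spread widely, and those named here were picked after their values were seen. Over the 29 chromosomes with at least 20 pairs the width ratio ran from -0.93 (-1.26 to -0.51) on chromosome 9 to 0.96 (0.34 to 1.52) on chromosome 16, and was above 0 on 3 of them. Chromosome 16, home of the ribosomal RNA genes and of the MHC in chicken, had its CAP-H peaks inside SMC2 peaks in 13 of 20 pairs, or 65.0% (40.8 to 84.6). Over these 20 pairs the median SMC2 width was 4451.5 bp and the median CAP-H width 1578 bp, a peak with several partners being counted once for each. Chromosome 9 was the reverse, with SMC2 inside CAP-H in 58.5% (44.1 to 71.9) of 53 pairs and CAP-H inside SMC2 in 1.89% (0.05 to 10.1).

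Chromosome 2 had the simplest sites. One-to-one pairs made up 89.4% (81.3 to 94.8) of its 94 pairs, against 68.8% (63.3 to 74.0) of the 308 on chromosomes 1, 3, 4 and 5. Taken singly, the share was 78.1% (69.0 to 85.6) on chromosome 1, 72.3% (57.4 to 84.4) on 3 and 72.6% (60.9 to 82.4) on 5. These intervals meet that of chromosome 2, and only that of chromosome 4, at 51.8% (40.6 to 62.9), lies below it. On chromosome 2 the median share of bases in both peaks was 65.7% (59.1 to 71.7). Chromosome 18 was at the other extreme, with 41.5% (32.0 to 51.5) of 106 pairs one-to-one and a median offset of 702 bp (535 to 1051). On chromosome 27, which had the most pairs, the one-to-one share was 48.5% (39.6 to 57.4) of 130. The median offset was largest on chromosome 24, at 798 bp (518 to 1042), and smallest on chromosome 7, at 236 bp (86.5 to 576) over 23 pairs. Intervals of neighbouring chromosomes in these orders overlap widely.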

How the data were processed

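Per the labels' protocols, DNA from streptavidin pull-downs of mitotic DT40 cells was sequenced as single-end reads of 50 bp. Per the submitters' processing notes, BWA was used with galGal4; no version of BWA is stated. Each pull-down has 1 deposited peak list, so peaks belong to single libraries. The names of the peaks carry the prefix MACS, a peak caller; for the version, control and threshold, the sources used here give nothing. The SMC2 list gives the authors' score per peak, whose scale no header states, and the CAP-H list has none. The inputs and the profiles around transcription start sites were not used here.

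File starts were read as counted from 0, since both lists hold starts of 0, and are printed counted from 1 in galGal4. A centre is the midpoint of a peak. Chromosome classes were 1 to 5 (macrochromosomes), 6 to 10, 11 to 28 (microchromosomes), Z, W, and all sequence outside these (unplaced). No genome or annotation of that build was used here, so no gene or sequence is given. Named pairs were, on placed chromosomes, the 10 with the highest score (ties in full up to 15 pairs), and 5 each by largest offset, highest and lowest width ratio, smallest overlap, nearest miss, closest centres in the upper 10% by score, and sites by number of peaks (ties up to 8). Pairs, measures and rules were chosen with earlier results of these data known. Pairing and the intervals for medians were tested on simulated data, the latter on independent values, and the binomial intervals were not. Python 3.11.15, numpy 2.4.6, pandas 2.3.3, scipy 1.17.1 and matplotlib 3.10.9 were used. Alternatives were other overlaps, a score minimum, placed chromosomes, one-to-one pairs and merged peaks.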

Additional observations from a re-analysis of the deposited data

How the results depend on the processing

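The 10 main values were recomputed under 6 alternatives, wherever an alternative could give them, and no value with an interval away from 0 changed sign. The values below are those outside the 95% interval of the reported value or, for the number of pairs, changed by more than 1.5 times; 31 others stayed within these limits. Where each peak had to be covered by at least 50%, there were 1134 pairs, all of them one-to-one (100%) by the construction of the rule, the median centre distance was 223 bp and the log2 width ratio -0.087. SMC2 then lay inside CAP-H in 31.5% and CAP-H inside SMC2 in 19.8%; no ratio of scores exists there, as no SMC2 peak had several partners. With an overlap of at least 200 bp, 69.9% of pairs were one-to-one and the distance was 417.5 bp. On placed chromosomes alone the distance was 493 bp, the width ratio -0.35 and the share with CAP-H inside SMC2 13.2%. With SMC2 scores of at least 100 there were 1199 pairs, 69.7% one-to-one, with a distance of 493 bp, a signed offset of -34 bp, a width ratio of -0.075, SMC2 inside CAP-H in 31.9% and CAP-H inside SMC2 in 20.02%. Partners were counted there without the weaker SMC2 peaks, so the score minimum has a part in the one-to-one share by construction. With all SMC2 peaks kept, that share was 71.5% in the weakest of the 5 score groups and 56.8% in the strongest. In one-to-one pairs alone the distance was 282 bp, the width ratio -0.16 and the share with CAP-H inside SMC2 18.6%. With peaks closer than 500 bp merged, 79.7% were one-to-one, the width ratio was -0.25, CAP-H lay inside SMC2 in 19.0%, and the ratio of median scores was 3.17. A merged peak took the highest score of its pieces, so the merging has a part in that ratio by construction. The causes of these shifts were not tested, apart from the constructions named. No paired analysis was possible because each pull-down is 1 library. Read depth is unknown, so what depth limits in the number and edges of peaks cannot be given.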
